A study of Caenorhabditis elegans with 36 samples.

Results

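Lysozyme genes of the nematode Caenorhabditis elegans were followed by RNA sequencing of whole animals. The 9 genes were taken by identifier, out of 24931 named genes counted: lys-1 to lys-8, which encode lysozymes of the protist type, and ilys-3, which encodes one of the invertebrate type. Each had counts in all 12 groups, of 3 libraries each. The groups were N2, the wild type, and mbl-1(tm1563), which carries an allele of the gene of the muscleblind splicing factor, and 4 transgenic strains. In the transgenic strains the promoter of myo-3, a myosin heavy chain gene of body wall muscle, drives gfp with 123 CUG repeats (123CUG, strain 1 with the insertion mgIs64 and strain 2 with mgIs84) or with 0 repeats (0CUG, strain 1 with mgIs65 and strain 2 with mgIs85) in its 3' untranslated region. Each of the 6 was sampled under 2 stage labels, L4 (the final larval stage) and 2-day adult. All animals were of Bristol origin, were synchronised with hypochlorite and ate HT115 bacteria with an empty RNAi vector. The transgene is expressed in muscle, and the RNA came from the whole animal, so no tissue was measured alone.

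Lysozymes cut the peptidoglycan of bacterial cell walls. C. elegans eats bacteria, and in this animal lysozymes, many of them made in the intestine, serve both to digest the bacteria that pass the grinder of the pharynx and to limit those that colonise the gut. Known regulators of these genes include the insulin pathway with its transcription factor DAF-16, the DBL-1 pathway of the TGF-beta family, the p38 kinase PMK-1 pathway and the intestinal GATA factor ELT-2.

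The genes lie in 2 clusters and at 3 single sites (build WBcel235, coordinates of the deposited tables). A first cluster on chromosome V spans 5622 bases and holds lys-1 (Y22F5A.4; chromosome V, 10277827 to 10279127, plus strand), lys-2 (Y22F5A.5; chromosome V, 10280310 to 10281470, minus strand) and lys-3 (Y22F5A.6; chromosome V, 10282204 to 10283448, minus strand). A second cluster on chromosome IV spans 6505 bases and holds lys-4 (F58B3.1; chromosome IV, 11621443 to 11623124, minus strand), lys-5 (F58B3.2; chromosome IV, 11624255 to 11625582, minus strand) and lys-6 (F58B3.3; chromosome IV, 11626910 to 11627947, minus strand). The single genes are lys-7 (C02A12.4; chromosome V, 3481419 to 3482602, minus strand), lys-8 (C17G10.5; chromosome II, 5586165 to 5587652, plus strand) and ilys-3 (C45G7.3; chromosome IV, 2464471 to 2465440, plus strand). An annotated non-coding RNA, F58B3.11, lies inside lys-4 on the same strand, and reads of the pair cannot be told apart. Reads that fit more than 1 member could be split between them by the counting, which is not described in the sources used here.

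Libraries held 25251114 to 47914774 counted reads, and the 9 genes together took 0.0863% to 0.246% of them. Levels below are CPM, read counts scaled to library size, on 1 scale over the 36 libraries, and a gene is called where edgeR's quasi-likelihood test gives an adjusted p under 0.05 over all genes tested. Gene counts of mbl-1 were at 13.1, 13.2 and 13.7 CPM in N2 and 13.7, 9.73 and 15.04 CPM in the mutant labelled L4; they do not resolve the deleted part, so they check no label. The yolk protein gene vit-2, a mark of adult hermaphrodites, stood at 29392 to 36616 CPM in libraries of N2 and mbl-1 labelled L4 and at 471 to 2339 CPM in the transgenic L4 libraries. The former go against their label, are called libraries labelled L4 here, and are tested against no transgenic library; orders and correlations over the 12 groups below set them side by side as descriptions. In the N2 adults the third library stood apart from the rest of its group. In the mbl-1 adults the third library lay at an end of a spread, with the first at the other end. The summed level of 14 intestine markers was 3562, 4501 and 7671 CPM in the N2 adults and 8189, 6537 and 3942 CPM in the mbl-1 adults. That of 12 oocyte markers was 9329.7, 7791 and 4014 and 2861, 4885 and 9566 CPM. Calls in the N2 and mbl-1 adults are therefore given with and without the third library of each group. In whole animals, fewer intestinal cells relative to other tissue and less RNA per cell cannot be told apart.

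Levels of the 9 genes ranged widely. Per kilobase of transcript, lys-1 had a mean of 346 (0CUG strain 1 adults) to 876 CPM per kb (0CUG strain 2 adults), and lys-2 of 279 (0CUG strain 1 adults) to 588 CPM per kb (123CUG strain 1 adults). The means of lys-4 ran from 72.5 (0CUG strain 1 adults) to 535 CPM per kb (mbl-1 adults). lys-8 ran from 50.1 in 123CUG strain 2 L4 to 613 CPM per kb in mbl-1 adults. These 4 genes gave most of the summed level of the family in every group, as the plot of family shares shows. lys-7 had the largest ratio of highest to lowest group mean (404), from 0.575 in 123CUG strain 2 L4 to 232 CPM per kb in 0CUG strain 2 adults. The other 4 genes stayed low, with highest group means of 8.25 CPM per kb for lys-3, 3.69 for lys-5, 3.77 for lys-6 and 5.39 for ilys-3. Each cluster thus joins abundant and rare transcripts, lys-1 and lys-2 beside lys-3 and lys-4 beside lys-5 and lys-6. Counts of the rare genes were 5 to 275 reads per library for lys-3, 0 to 124 for lys-5, 10 to 121 for lys-6 and 0 to 161 for ilys-3, and their values carry the counting error of such numbers.

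**Figure D1:**
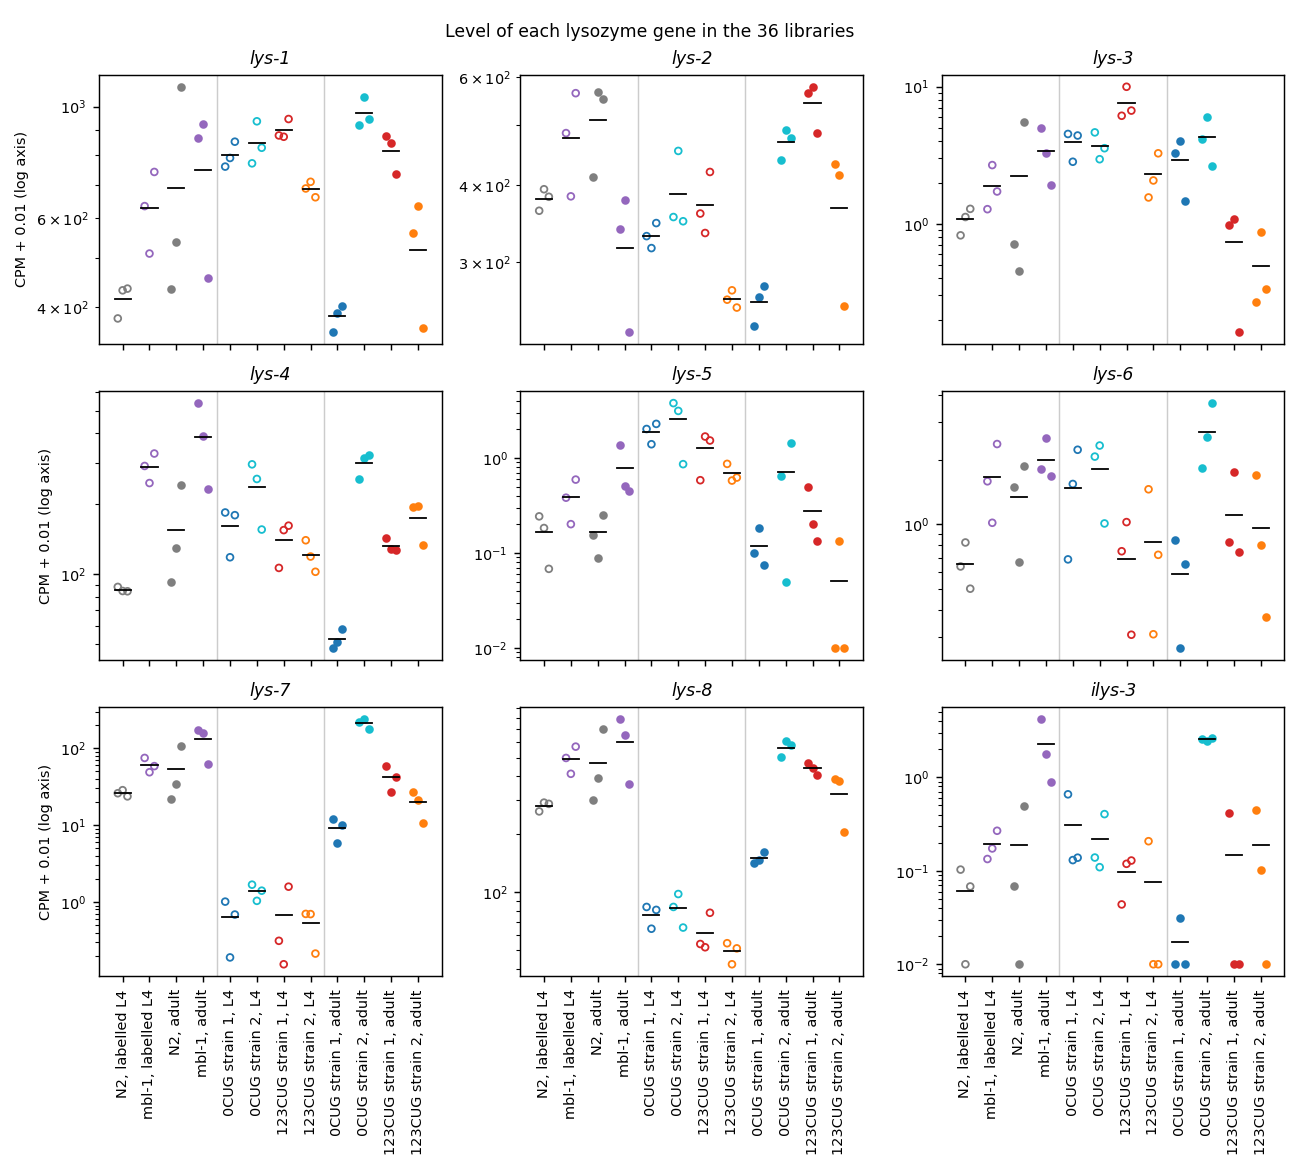
Level of each of the 9 lysozyme genes in the 36 libraries, as CPM + 0.01 on a log axis; each point is 1 library, open points are labelled L4, filled points are 2-day adults, and bars are means of 3 libraries. lys-7 and lys-8 are low in the 12 transgenic L4 libraries, and in adults lys-7 has means of 9.25 CPM in 0CUG strain 1 and 213 CPM in 0CUG strain 2.

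With the groups ordered by mean CPM, neighbours in the order had overlapping libraries for all 11 steps in lys-1, lys-2, lys-5 and lys-6. For lys-8, 3 of 11 steps separated groups whose libraries did not overlap, for lys-4 and lys-7 2, and for lys-3 and ilys-3 1. 0CUG strain 1 adults were the lowest group for lys-1, lys-2, lys-4, lys-6 and ilys-3. The highest group was 0CUG strain 2 adults for lys-1, lys-6, lys-7 and ilys-3, mbl-1 adults for lys-4 and lys-8, 123CUG strain 1 adults for lys-2, 123CUG strain 1 L4 for lys-3 and 0CUG strain 2 L4 for lys-5.

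**Figure D2:**
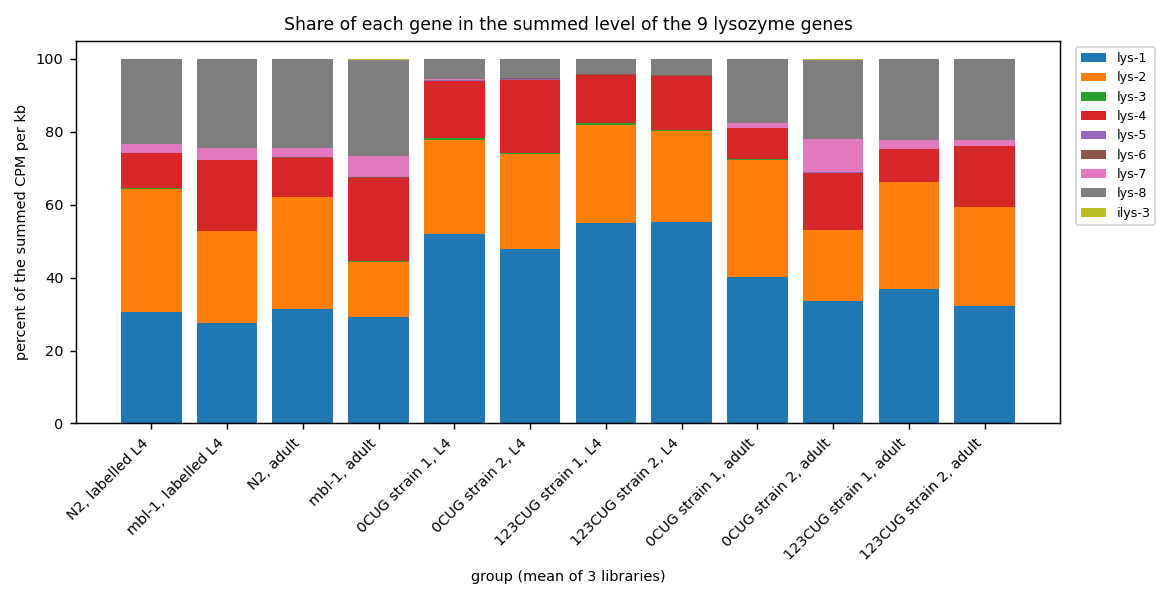
Share of each gene in the summed CPM per kb of the 9 lysozyme genes, as the mean of 3 libraries in each of the 12 groups. In the transgenic L4 groups lys-1 makes up 47.9% to 55.2% of the family and lys-8 4.18% to 5.59%, and in the transgenic adults lys-8 makes up 17.6% to 22.3%.

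The first question was how the family differs between L4 larvae and 2-day adults of the transgenic strains, in which both stages could be compared. Most genes of the genome moved between the stages: 82.7% of 17248 genes were called in the 0CUG strains (34.4% rose and 48.3% fell) and 82.6% in the 123CUG strains (35.5% rose and 47.1% fell), so a call by itself says little. lys-7 and lys-8 rose in both constructs, lys-5 and lys-1 fell in both, lys-4 fell in 0CUG, and lys-2 rose and lys-3 fell in 123CUG. In all, 2 members rose and 3 fell of 9 tested in 0CUG, and 3 rose and 3 fell of 9 in 123CUG. The median log2 difference was -0.49 over the members and -0.48 over all genes in 0CUG, and 0.37 and -0.41 in 123CUG.

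lys-7, a known DAF-16 target and the member with the largest stage difference, was low in L4. Its L4 levels were 1.002, 0.180 and 0.677 CPM in 0CUG strain 1, 1.67, 1.03 and 1.395 in 0CUG strain 2, 0.303, 0.145 and 1.57 in 123CUG strain 1 and 0.691, 0.687 and 0.204 in 123CUG strain 2, from 4 to 53 reads a library. In adults it stood at 11.97, 5.82 and 9.95 CPM in 0CUG strain 1, 223, 237 and 179 in 0CUG strain 2, 58.7, 27.3 and 42.3 in 123CUG strain 1 and 27.3, 21.2 and 10.8 in 123CUG strain 2. Every adult library was above every L4 library. On the log2 scale lys-7 rose by 5.48 ± 0.39 (SE) in 0CUG (edgeR adjusted p = 1.58e-10) and by 5.46 ± 0.41 in 123CUG (edgeR adjusted p = 3.81e-10), with 6 libraries per stage each.

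lys-8, a lysozyme gene controlled by DBL-1 signalling and by DAF-16, was at 83.96, 64.7 and 81.1 CPM in L4 and 141, 147 and 162 CPM in adults of 0CUG strain 1. In 0CUG strain 2 it went from 83.98, 97.98 and 65.6 to 502, 607 and 579.7 CPM. The 123CUG strains went from 53.9, 51.9 and 78.3 to 469.6, 443 and 407 CPM in strain 1 and from 54.4, 42.3 and 51.2 to 386, 380.1 and 206 CPM in strain 2. The stages did not overlap in any strain, and lys-8 rose by 1.78 ± 0.14 on the log2 scale in 0CUG and by 2.69 ± 0.14 in 123CUG (edgeR adjusted p = 2.9e-11 and 2.31e-14). Its share of the family rose with it, from 5.204% ± 0.434 to 21.9% ± 0.745 (SD, n = 3) in 0CUG strain 2, for example.

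lys-5 went the other way. Reads in L4 were 68, 46 and 124 in 0CUG strain 1, 117, 94 and 28 in 0CUG strain 2, 17, 46 and 51 in 123CUG strain 1 and 26, 19 and 18 in 123CUG strain 2. Adult libraries held 3, 8 and 2 reads in 0CUG strain 1, 18, 1 and 38 in 0CUG strain 2, 13, 5 and 4 in 123CUG strain 1 and 0, 4 and 0 in 123CUG strain 2. It fell by 3.04 ± 0.62 on the log2 scale in 0CUG, where 1 adult library of strain 2 lay among the L4 values, and by 3.12 ± 0.69 in 123CUG, where the stages did not overlap (edgeR adjusted p = 7.89e-05 and 0.00019).

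The strain averages of the neighbours lys-1 and lys-2 were small by comparison. lys-1, which is known to be induced by bacterial infection, fell by 0.52 ± 0.09 in 0CUG and by 0.36 ± 0.09 in 123CUG (edgeR adjusted p = 1.04e-05 and 0.00096), close to the median over all genes and with overlapping libraries. Strain by strain, lys-1 fell from a mean of 801 to 383 CPM in 0CUG strain 1 (log2 -1.13 ± 0.13, edgeR adjusted p = 1.6e-08, with 77.7% of genes called) and stood at 845 and 969 CPM in 0CUG strain 2 (0.09 ± 0.13, edgeR adjusted p = 0.559, with 72.5% called). In 123CUG it fell in strain 2 (-0.50 ± 0.13, edgeR adjusted p = 0.00111, with 75.7% called) and differed by -0.21 ± 0.13 in strain 1 (edgeR adjusted p = 0.150, with 75% called). lys-2 rose by 0.43 ± 0.10 in 123CUG (edgeR adjusted p = 0.00026) and differed by -0.13 ± 0.10 in 0CUG (edgeR adjusted p = 0.221). Per kilobase, lys-1 exceeded lys-2 by a median of 1.82 to 2.20 times in the L4 libraries of the 4 strains and by 1.19 to 1.75 times in their adults.

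Markers of other tissues moved with the stages. Of 14 intestine markers, 13 fell in 0CUG and 13 in 123CUG, and all 12 oocyte markers and all 6 yolk genes rose in both. The summed intestine level was 7787 to 9929 CPM in 0CUG strain 1 L4 and 1584 to 1828 CPM in its adults, and the summed oocyte level 74.4 to 96.3 and 4796 to 5370.4 CPM. lys-7 and lys-8 rose while the intestine markers fell. The part of tissue shares in the stage differences was not tested for any member.

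Stage differences were not equal across the strains. The 0CUG strains differed: with the stage difference of strain 1 subtracted from that of strain 2, lys-1 (1.22 ± 0.18), lys-4 (1.91 ± 0.30), lys-7 (3.38 ± 0.83) and lys-8 (1.76 ± 0.27) were called, beside lys-2 and ilys-3 (edgeR adjusted p = 2.67e-05, 8.22e-05, 0.00678 and 5.68e-05 for the first 4; 20.1% of genes were called). The median over all genes was 0.20 there, and DESeq2's size factors moved it by -0.198, which is less than the difference of any of these 4 genes. lys-4 fell by 1.68 ± 0.21 from L4 to adult in 0CUG strain 1 (edgeR adjusted p = 3.11e-07) and differed by 0.23 ± 0.21 in strain 2 (edgeR adjusted p = 0.325). Between the 123CUG strains no member's stage difference differed by edgeR's test, at adjusted p from 0.301 to 0.936 (3.78% of genes were called).

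The next comparison was between the control strains themselves, since a 123CUG effect is read against them. At L4 none of the 8 tested members was called between 0CUG strain 2 and strain 1 (edgeR; 1.18% of genes were called by edgeR, 2379 genes had an unadjusted p under 0.05, DESeq2 called 587, and ilys-3 was not tested). In adults 7 of 9 were higher in strain 2 and 0 lower, in a comparison where 44.6% of 14070 genes were called, 22.3% as higher. The median log2 difference was 2.13 over the members and -0.02 over all genes. Strain 1 had 11.97, 5.82 and 9.95 CPM of lys-7 and strain 2 223, 237 and 179 CPM, a 21.99-fold difference (log2 4.46 ± 0.45, n = 3 and 3, edgeR adjusted p = 6.78e-05). lys-4 was at 48.2, 51.2 and 58.03 against 255, 315 and 324 CPM (log2 2.43 ± 0.13, edgeR adjusted p = 7.55e-11). lys-1 was at 358, 389.5 and 403 against 920.0, 1044 and 944 CPM (log2 1.26 ± 0.15, edgeR adjusted p = 1.09e-06). No library of strain 1 reached the lowest of strain 2 for any of these 3 genes. How many of all genes separate these strains so was not counted.

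The remaining calls were lys-8 (log2 1.83 ± 0.17), lys-2 (0.79 ± 0.14), lys-6 (2.13 ± 0.61) and ilys-3, with edgeR adjusted p of 2.07e-07, 0.000205, 0.00732 and 0.000501. ilys-3, whose product is known to lyse Gram-positive bacteria, had 0, 1 and 0 reads in strain 1 and 74, 62 and 71 in strain 2. Per read sequenced this is a ratio of 245 (95% exact binomial counting interval 43.5 to 9734, counting error only). lys-3 and lys-5 were not called (log2 0.47 ± 0.53 and 2.55 ± 1.24, edgeR adjusted p = 0.510 and 0.103). Of 14 intestine markers 12 were also higher in strain 2, with a median log2 difference of 1.16, and so were all 6 yolk genes. The summed intestine level was 1584 to 1828 CPM in strain 1 and 3790.0 to 4919.7 CPM in strain 2. Other tissues went the opposite way. The summed level of 8 sperm markers was 18.3 to 18.9 CPM in strain 1 and 2.16 to 3.13 CPM in strain 2. That of 12 oocyte markers was 4796 to 5370 and 4286 to 4588 CPM, and that of 6 hypodermis markers 637 to 815 and 408 to 463 CPM. The part of tissue shares in these differences was not tested.

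**Figure D3:**
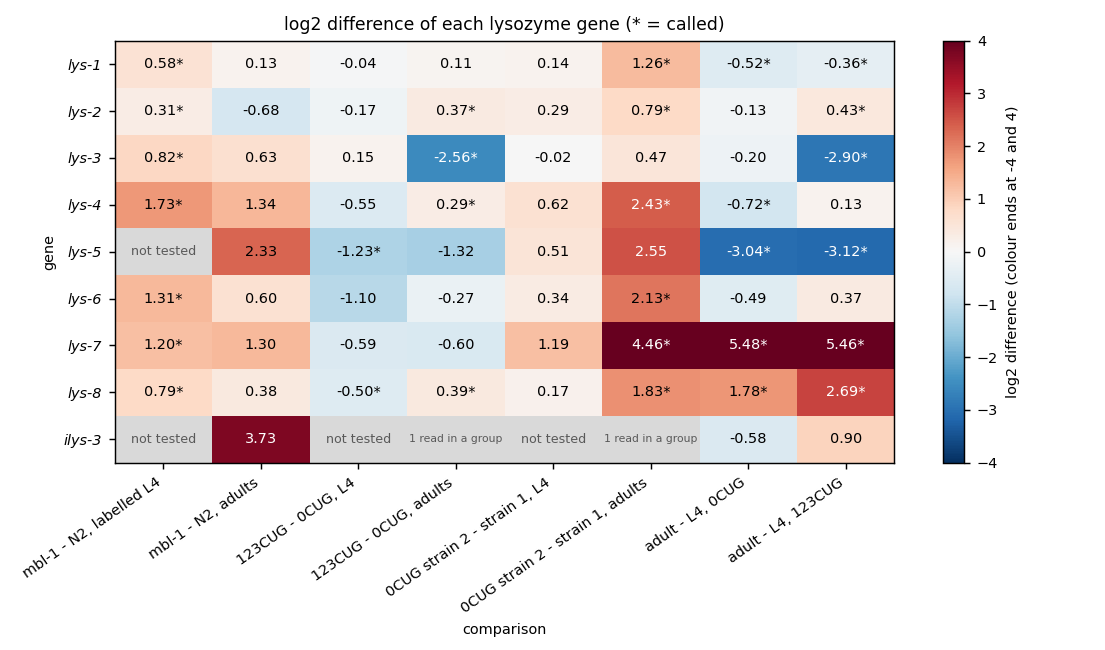
Log2 difference of each lysozyme gene in 8 comparisons, first group minus second, with a star where edgeR called the gene. Grey cells were not tested, or rest on a group or strain with 1 read. The ilys-3 cell of adult minus L4 in 0CUG is coloured, though the adults of 0CUG strain 1 held 1 read there too. In the column of 0CUG strain 2 minus strain 1 in adults every starred cell is positive. The call of ilys-3 in that column is left as a grey cell without a star. The 2 stage columns share the calls of lys-1, lys-5, lys-7 and lys-8.

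The 123CUG strains were compared with the 0CUG strains at each stage, on the log2 scale with the strains of each construct averaged, 0CUG subtracted from 123CUG. The p-values measure the spread between libraries within strains, and 2 strains per construct do not measure the variation between strains. At L4, lys-5 and lys-8 were lower in 123CUG and no member was higher, of 8 tested, where 14.4% of 16210 genes were called and 9.36% as lower. lys-8 stood at 53.9, 51.9 and 78.3 CPM in 123CUG strain 1, 54.4, 42.3 and 51.2 in strain 2, 83.96, 64.7 and 81.1 in 0CUG strain 1 and 83.98, 97.98 and 65.6 in strain 2. 1 library of 123CUG strain 1 lay among the 0CUG values, and the difference was -0.50 ± 0.12 (n = 6 and 6, edgeR adjusted p = 0.0118). lys-5 differed by -1.23 ± 0.37 (edgeR adjusted p = 0.0296), on the reads given above. lys-8 lost its call without the third library of 0CUG strain 1 (edgeR adjusted p = 0.0512), and lys-5 in 7 of 12 fits that left out 1 library (edgeR adjusted p 0.0550 to 0.103). lys-4 was at 106, 154 and 161 CPM in 123CUG strain 1, 139, 119 and 102 in 123CUG strain 2, 183, 118 and 179 in 0CUG strain 1 and 295, 255 and 155 in 0CUG strain 2. Its difference of -0.55 ± 0.19 missed the threshold (edgeR adjusted p = 0.0868) and was called without the third library of 0CUG strain 2, the lowest of its group (log2 -0.67, edgeR adjusted p = 0.0107). All 6 yolk genes were lower in 123CUG at L4, while 2 of 14 intestine markers were.

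The 123CUG strains also differed from each other at L4. lys-1, lys-2 and lys-3, the whole cluster on chromosome V, were lower in strain 2 than in strain 1, and no other tested member was called (9.63% of genes were called, 4.9% as lower). lys-3 was at 6.13, 9.98 and 6.68 CPM in strain 1 and 1.55, 2.06 and 3.26 CPM in strain 2 (log2 -1.76 ± 0.31, edgeR adjusted p = 0.000905). lys-2 was at 359, 334 and 420.0 and 260.2, 269.5 and 253 CPM (log2 -0.54 ± 0.10, edgeR adjusted p = 0.00194) and lys-1 at 876, 871 and 945 and 688, 709 and 661 CPM (log2 -0.42 ± 0.09, edgeR adjusted p = 0.00401). The strains did not overlap for these 3 genes, though the share of all genes without overlap was not counted. lys-1 lost its call in a fit of 24 libraries (edgeR adjusted p = 0.0959). In adults strain 2 was again lower in lys-1 (-0.65 ± 0.14) and lys-2 (-0.56 ± 0.14; edgeR adjusted p = 0.00797 and 0.0235, with 5.39% of genes called). These calls were lost in 1 fit for lys-1, without the first library of strain 1 (edgeR adjusted p = 0.0525), and in 3 of 6 for lys-2, without the first or second of strain 1 or the third of strain 2 (edgeR adjusted p 0.0552 to 0.114). Against the 0CUG strains, whose means at L4 lay between, lys-3 was higher in 123CUG strain 1 (log2 1.03 ± 0.30 and 1.04 ± 0.30 against 0CUG strains 1 and 2, edgeR adjusted p = 0.0235 and 0.0265, with 16.8% and 13.6% of genes called) and differed by -0.73 ± 0.31 and -0.72 ± 0.31 in strain 2 (edgeR adjusted p = 0.167 and 0.310, with 8.78% and 3.78% called). The rise in strain 1 lost its call without the second library of that strain (edgeR adjusted p = 0.131 and 0.147). It was also lost without the second library of the 0CUG strain compared, in both pairs (edgeR adjusted p = 0.0947 and 0.127), and without the third of 0CUG strain 2 in its pair (edgeR adjusted p = 0.0530). A fit of 24 libraries called neither (edgeR adjusted p = 0.232 and 0.223).

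In 2-day adults lys-3 was lower in 123CUG than in 0CUG. Its levels were 0.964, 1.07 and 0.154 CPM in 123CUG strain 1, 0.258, 0.858 and 0.324 in strain 2, 3.28, 4.02 and 1.45 in 0CUG strain 1 and 4.16, 6.03 and 2.61 in strain 2. Every 123CUG library was below every 0CUG library. The log2 difference was -2.56 ± 0.42 (n = 6 and 6 libraries from 2 strains each, edgeR adjusted p = 0.000421), in a comparison that called 10.1% of 14070 genes, 4.33% as lower and 5.74% as higher. Between the adults of the 0CUG strains themselves 44.6% of genes were called. It kept its call in all 12 fits that left out 1 library (log2 -2.92 to -2.31). lys-3 was the 1 member with a call of 1 sign in every pairing of a 123CUG with a 0CUG strain, as had 0.412% of genes (0.22% as lower). Pair by pair its difference was -2.05 ± 0.58 and -2.60 ± 0.60 for 123CUG strains 1 and 2 against 0CUG strain 1, and -2.52 ± 0.59 and -3.07 ± 0.61 against 0CUG strain 2 (edgeR adjusted p = 0.0124, 0.00542, 0.00597 and 0.00172). Those 4 pairs called 27.6%, 13.9%, 15.3% and 20.3% of genes. The first pair lost its call of lys-3 without the first or the second library of 0CUG strain 1 (edgeR adjusted p = 0.0523 and 0.0669). Pairs that share a strain share its libraries. Of 14 intestine markers 0 were higher and 1 lower in 123CUG adults (median log2 0.06), and their summed level was 3156 to 3531 and 1957 to 3425 CPM in 123CUG strains 1 and 2; their part in the lys-3 difference was not tested.

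For lys-1, lys-4, lys-7 and lys-8 the sign followed the 0CUG strain they were set against, as the plot of the 4 adult pairs shows. lys-4 was higher in both 123CUG strains than in 0CUG strain 1 (log2 1.30 ± 0.13 and 1.70 ± 0.13) and lower in both than in 0CUG strain 2 (-1.13 ± 0.13 and -0.72 ± 0.13), with edgeR adjusted p of at most 0.000496. lys-7 was at 58.7, 27.3 and 42.3 CPM in 123CUG strain 1 and 27.3, 21.2 and 10.8 CPM in strain 2. With means of 42.8 and 19.8 CPM it lay between the 0CUG strains (9.25 and 213 CPM), though libraries of 123CUG strain 2 and 0CUG strain 1 overlapped. It was higher in 123CUG strain 1 than in 0CUG strain 1 (log2 2.19 ± 0.42, edgeR adjusted p = 0.00475), differed by 1.08 ± 0.42 between 123CUG strain 2 and 0CUG strain 1 (edgeR adjusted p = 0.138), and was lower in both 123CUG strains than in 0CUG strain 2 (-2.27 ± 0.40 and -3.38 ± 0.42, edgeR adjusted p = 0.00588 and 0.00100). lys-1 and lys-8 likewise had opposite signs against the 2 control strains, as did lys-6 without a call. ilys-3 was called as lower in 123CUG strains 1 and 2 than in 0CUG strain 2, on 11 and 15 reads against 207. Those pairs called 15.3% and 20.3% of genes, and its calls held in 2 and 1 of 6 fits without 1 library. Its values against 0CUG strain 1 rest on 1 read there. lys-2 was higher in 123CUG strains 1 and 2 than in 0CUG strain 1 (1.04 ± 0.14 and 0.49 ± 0.14, edgeR adjusted p = 1.86e-05 and 0.0257), with 0.26 ± 0.14 and -0.30 ± 0.14 against 0CUG strain 2 (edgeR adjusted p = 0.252 and 0.142); the call of strain 2 was lost in 5 of 6 fits without 1 library (edgeR adjusted p 0.0514 to 0.173). The strain averages gave small differences: lys-2 0.37 ± 0.10, lys-4 0.29 ± 0.09 and lys-8 0.39 ± 0.12, all called as higher (edgeR adjusted p = 0.0215, 0.0435 and 0.0404), with overlapping libraries. For lys-4 the sign depends on the averaging, since its mean CPM was 153 in 123CUG and 175 in 0CUG. The calls of these 3 genes were lost in 7, 9 and 11 of 12 fits that left out 1 library (edgeR adjusted p 0.0562 to 0.0893, 0.0620 to 0.150 and 0.0519 to 0.142).

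**Figure D4:**
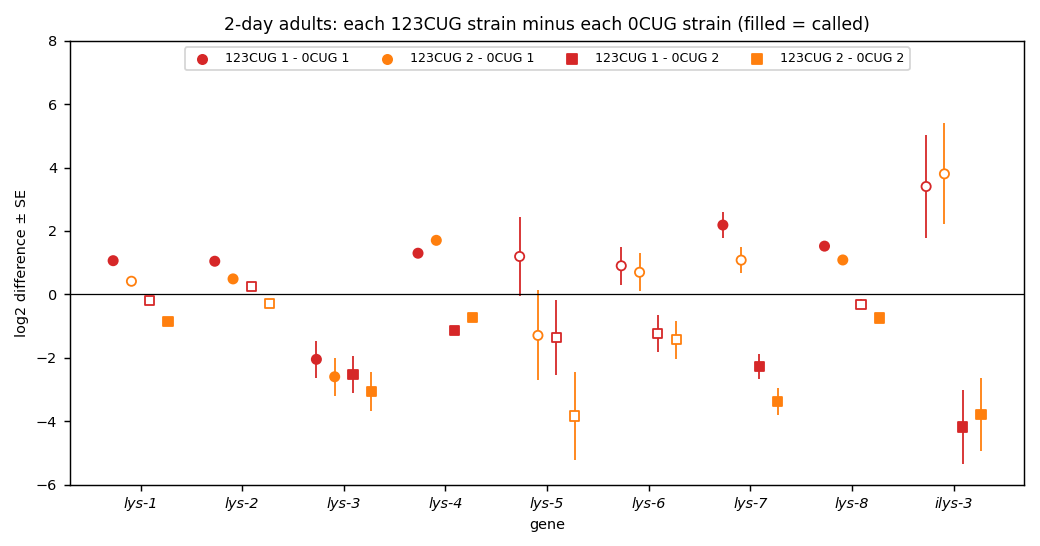
Log2 difference ± SE of each lysozyme gene between each 123CUG strain and each 0CUG strain in 2-day adults (3 libraries per strain; circles against 0CUG strain 1, squares against 0CUG strain 2, filled where edgeR called the gene). lys-3 lies at -2.05, -2.60, -2.52 and -3.07, while lys-4 and lys-7 are positive against 0CUG strain 1 and negative against 0CUG strain 2; values of ilys-3 against 0CUG strain 1 rest on 1 read there.

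Whether the 123CUG difference changed with stage was tested as an interaction over the 24 transgenic libraries, in which 5.93% of genes were called. lys-3 had -2.70 ± 0.51, from a difference of 0.15 ± 0.22 at L4 (edgeR adjusted p = 0.707) to -2.56 ± 0.42 in adults (edgeR adjusted p of the interaction = 0.00116). lys-8 had 0.91 ± 0.19, lys-4 0.86 ± 0.21 and lys-2 0.56 ± 0.14 (edgeR adjusted p = 0.00405, 0.0146 and 0.0128). These 3 had negative differences at L4 and positive ones in adults on the strain average. lys-4 lost its call without the second library of 123CUG strain 2 adults or the first of 0CUG strain 1 adults (edgeR adjusted p = 0.0514 and 0.0530), and lys-2 in 6 of 24 such fits, each without 1 adult library (edgeR adjusted p 0.0571 to 0.0735).

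The mbl-1(tm1563) mutant was compared with N2 in the libraries labelled L4. All 7 tested members were called higher in mbl-1, in a comparison where 51.4% of 13264 genes were called and 29.7% as higher. lys-5 (10, 7 and 2 reads in N2, 12, 7 and 18 in mbl-1) and ilys-3 (4, 0 and 2 and 4, 6 and 8) had too few reads to be tested. The median log2 difference was 0.82 over the tested members and 0.03 over all genes. lys-4 was at 87.9, 84.5 and 84.2 CPM in N2 and 290.1, 245 and 328 CPM in mbl-1, a 3.31-fold difference (log2 1.73 ± 0.10, n = 3 and 3, edgeR adjusted p = 1.59e-08). lys-7 was at 26.02, 28.5 and 23.7 and 74.9, 48.8 and 58.6 CPM (log2 1.20 ± 0.13, edgeR adjusted p = 4.81e-06). lys-8 was at 263, 292 and 288 and 498, 412 and 569.8 CPM (log2 0.79 ± 0.11, edgeR adjusted p = 4.53e-05). Every mbl-1 library was above every N2 library for these 3 genes and also for lys-1 and lys-6 (log2 0.58 ± 0.12 and 1.31 ± 0.35, edgeR adjusted p = 0.00117 and 0.00652). The share of all genes that separate the groups in this way was not counted, so it is not a trait of the members.

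The other pair of calls, lys-2 and lys-3, rested on overlapping libraries. lys-2 was at 363, 394 and 383 CPM in N2 and 486, 383 and 564 CPM in mbl-1, and lys-3 at 0.814, 1.11 and 1.28 and 1.27, 2.67 and 1.71 CPM (log2 0.31 ± 0.12 and 0.82 ± 0.31, edgeR adjusted p = 0.0381 and 0.0380). lys-2 lost its call in 5 of 6 fits that left out 1 library, all but the one without the second mbl-1 library (edgeR adjusted p 0.0813 to 0.122). lys-3 lost its call without the first or second N2 or the second mbl-1 library (edgeR adjusted p 0.0740 to 0.238). The ratio of lys-4 to lys-1 per kilobase was 0.296 to 0.354 in the N2 libraries and 0.676 to 0.734 in the mbl-1 libraries, so lys-4 was higher relative to its family as well. Of 14 intestine markers 12 were higher in mbl-1 (median log2 0.69), as were all 8 body wall muscle markers, and 11 of 12 oocyte markers were lower. The summed intestine level was 2949 to 3239 CPM in N2 and 4202 to 5982 CPM in mbl-1, and the part of tissue shares in the lysozyme differences was not tested. In a fit that estimates the spread from all 12 N2 and mbl-1 libraries, lys-4 alone of the members was called.

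In N2 and mbl-1 adults no member was called. No gene at all was called by edgeR among 13286 tested (0%), 695 had an unadjusted p under 0.05, and DESeq2 called 132. lys-4 was at 92.5, 129 and 242 CPM in N2 and 539.6, 391 and 230.2 CPM in mbl-1 (log2 1.34 ± 0.45), and the third library of each group lay nearest the other group. lys-7 was at 21.9, 33.97 and 106 and 173, 160.4 and 61.6 CPM (log2 1.30 ± 0.67), with the third libraries again inside the range of the other group. ilys-3 had 2, 0 and 14 reads in N2 and 161, 75 and 32 reads in mbl-1. Per read sequenced the summed ilys-3 counts differ 14.02-fold (95% exact binomial counting interval 8.47 to 24.9, counting error only), and the groups did not overlap in CPM. Of the 16 N2 reads 14 lie in the third library, and without the third libraries the ratio is 97.2 (26.6 to 807), from 236 reads against 2.

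Without the third library of both adult groups, edgeR called 7 of 9 members as higher in mbl-1, where 4416 of 13616 genes were called (32.4%, and 21.7% as higher). These were lys-7 (log2 2.59 ± 0.22, edgeR adjusted p = 0.00250), lys-4 (2.09 ± 0.23, edgeR adjusted p = 0.00316), lys-1 (0.89), lys-3 (2.87), lys-5 (3.04), lys-8 (1.07) and ilys-3 (edgeR adjusted p = 0.00458), whose fitted value of 6.59 rests on 2 N2 reads. lys-2 and lys-6 were not called (-0.44 and 1.03, edgeR adjusted p = 0.104 and 0.119). This fit rests on 2 libraries per group, and the libraries left out were those that lay towards the other group. Its adjusted p-values do not allow for that choice. Levels of lys-10, a lysozyme gene outside the 9, were 0.0291 to 0.309 CPM in N2 adults and 0.902 to 1.39 CPM in mbl-1 adults. These ranges include the third libraries and do not overlap, unlike those of lys-4 and lys-7. Whether the left-out libraries were exchanged was not tested.

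From the libraries labelled L4 to the adults, no member was called in N2, where edgeR called 0 genes of 14027 (2098 with an unadjusted p under 0.05, and 19 by DESeq2); without the third adult libraries no member was called there either (edgeR adjusted p 0.582, 0.576 and 0.573 for lys-8, lys-4 and lys-2). None was called in mbl-1 by edgeR, where 0.563% of genes were. Because those libraries have adult yolk transcripts, these are not tests of the L4 to adult transition. In mbl-1, ilys-3 had 4, 6 and 8 reads in the libraries labelled L4 (log2 3.63 ± 0.97, edgeR adjusted p = 0.117), and it was called without the third adult libraries (4.01 ± 0.59, edgeR adjusted p = 0.000206). lys-2 was at 339, 378 and 231 CPM in the adults, below all 3 libraries labelled L4 (log2 -0.60 ± 0.20, edgeR adjusted p = 0.186; -0.41 and 0.0679 without the third adult libraries). Without the third adult libraries 6 members were called as higher in mbl-1 adults than in the mbl-1 libraries labelled L4, where 20.4% of genes were called and 14.1% as higher. These were ilys-3, lys-7 (log2 1.46 ± 0.18, edgeR adjusted p = 6.87e-05), lys-3 (1.12), lys-4 (0.70), lys-8 (0.55) and lys-1 (0.52). The difference of the mbl-1 effect between the labelled stages called no member and 0.00713% of genes by edgeR, while 1364 genes had an unadjusted p under 0.05 and DESeq2 called 173. Without the third adult libraries it called lys-3 and lys-7 (2.05 and 1.39, edgeR adjusted p = 0.0301 and 0.00600), with 6.1% of genes called.

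The genome holds further lysozyme genes, and 7 of them (lys-9, lys-10 and ilys-1, ilys-2, ilys-4, ilys-5 and ilys-6) were read beside the members. ilys-5 was the most abundant, at 364 (0CUG strain 1 adults) to 1497 CPM per kb (mbl-1 adults). It rose from 623 to 1386 CPM in mbl-1 labelled L4 (log2 1.13 ± 0.12, edgeR adjusted p = 3.09e-06), together with the other 3 that were tested there. The same 4 genes were higher in 0CUG strain 2 adults than in strain 1 adults, where ilys-5 stood at 1478 and 372 CPM (log2 1.91 ± 0.18, edgeR adjusted p = 1.63e-07). lys-10 had 0 reads in all 12 transgenic L4 libraries and 3.05 CPM in 0CUG strain 2 adults. lys-9, ilys-1 and ilys-6 reached at most 0.254 CPM in any library and were not tested in these comparisons.

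Caenopores, the pore-forming peptides that attack bacterial membranes in the gut, were listed as 23 spp genes. In mbl-1 labelled L4 18 of 20 tested rose, as did 29.7% of all genes, with a median log2 difference of 0.91 against 0.03 over all genes. In 0CUG strain 2 adults 11 of 18 were higher than in strain 1 (22.3% of all genes), with the largest differences in spp-2 (log2 3.501 ± 0.162, edgeR adjusted p = 1.95e-11) and spp-18 (2.79 ± 0.15, edgeR adjusted p = 5.88e-11). Between L4 and adult of 0CUG 7 rose and 10 fell of 20, near the shares over all genes (34.4% and 48.3%). In 123CUG adults spp-5 was higher (1.06 ± 0.10) and spp-2 lower (-0.85 ± 0.11) than in 0CUG adults (edgeR adjusted p = 4.45e-07 and 2.11e-05). spp-2 was also lower in 123CUG at L4 (-1.49 ± 0.13, edgeR adjusted p = 1.23e-07).

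The known regulators of these genes were read from 4 lists, beside 29.7% of all genes called higher and 51.4% called in mbl-1 labelled L4. In mbl-1 labelled L4 the ELT-2 gene rose (log2 1.06 ± 0.12, edgeR adjusted p = 4.61e-06), as did the beta-catenin gene bar-1 (1.29 ± 0.15) and the bZIP factor gene zip-2 (0.87 ± 0.11), among 6 rises and 1 fall of 7 intestinal regulators. The DBL-1 pathway had 7 rises and 1 fall of 10, with the ligand gene dbl-1 at 0.98 ± 0.23. Of the p38 pathway's 6 genes 1 rose, the phosphatase gene vhp-1 (0.70 ± 0.11). The insulin pathway had 2 rises and 5 falls of 8, and the falls included the kinase gene akt-1 (-0.55 ± 0.10).

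In 0CUG strain 2 adults against strain 1, 8 of 10 DBL-1 pathway genes, 6 of 7 intestinal regulators, 3 of 6 p38 genes and 3 of 8 insulin pathway genes were higher and none lower (edgeR; 22.3% of all genes were higher and 22.3% lower). They included the GATA factor genes elt-7 (1.79 ± 0.28) and elt-2 (1.51 ± 0.25), the kinase gene pmk-1 (0.87 ± 0.26) and daf-16 (0.28 ± 0.09). From L4 to adult of 0CUG, 9 of 10 DBL-1 pathway genes and 5 of 6 p38 genes fell (48.3% of all genes did), among them pmk-1 (log2 -1.48 ± 0.15) and dbl-1 (-1.94 ± 0.18). In 123CUG against 0CUG adults none of these 31 regulator genes was called by edgeR (10.1% of all genes were).

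Across the 12 group means of log2(CPM + 1), the members with the most alike patterns were lys-7 and lys-8 (Pearson r = 0.98), then lys-4 and lys-6 of the same cluster (r = 0.87). lys-1 and lys-2, neighbours on chromosome V, had r = 0.39, and lys-5 had r of -0.56 and -0.58 with lys-7 and lys-8. These values share libraries and the contrast of transgenic L4 with the rest, and describe the groups only. Among 8145 genes with a mean of at least 10 CPM, the gene most like each member was cyp-43A1, a cytochrome P450 gene, for lys-1 (r = 0.979), C15H9.4 for lys-2 (0.859), C49C3.9 for lys-3 (0.889), spp-25 for lys-4 (0.936), F11D5.1 for lys-5 (0.953), M28.8 for lys-6 (0.964), nspg-8 for lys-7 (0.977), ZK1320.3 for lys-8 (0.995) and the caenopore gene spp-2 for ilys-3 (0.893).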

How the data were processed

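The deposited counts are whole numbers of reads per gene in 10 tables of 6 libraries, which the authors left unscaled. Per the submitters' processing notes, HISAT2 and DESeq2 were used with build WBcel235; the sources used here give no versions, counting tool or strandedness. The authors also deposited gene lengths, used here for levels per kilobase, and log2 fold changes and adjusted p-values of their own, which are not used for results. 140 columns of scaled values and means were not used. Counts shared by tables were equal (465954 values, 0 different). Unnamed loci (500, with 0.0201% to 0.0643% of reads) were left out, and 24598 symbols came from Ensembl release 115.

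Tests used edgeR 4.0.16 in R 4.3.3 (TMM scaling, filterByExpr, robust quasi-likelihood F test, Benjamini-Hochberg adjustment over all genes tested). mbl-1 and N2 were fitted in 6 libraries per stage, the transgenic strains in 12 per stage with a coefficient per strain, stage changes and interactions in 12 or 24. Standard errors came from the F statistic. The labels do not say whether libraries came from separate cultures, so p-values measure the spread between libraries, and 2 strains per construct do not measure the variation between strains. No pair of libraries agreed within sampling noise. Depth was 25251114 to 47914774 reads.

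Members, lists, tests and alternatives were chosen with earlier results of these data known. Stage changes per strain, their differences and the ilys-3 read ratios without the third adult libraries were added after values were seen. Named genes are the 9 members, 7 other lysozyme genes, up to 3 called genes of each list with the largest difference, and for each member the 1 gene with the highest correlation; daf-16, vhp-1 and akt-1 fall under that rule, and F58B3.11 was named for its overlap. Scripts were tested on simulated counts. Alternatives were DESeq2 1.42.0, its size factors in edgeR, no filter on low counts, a replicate block, leaving out libraries and wider fits.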

Additional observations from a re-analysis of the deposited data

Results flagged for a closer look

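In 10 cases a tested difference between effects passed the threshold of edgeR's quasi-likelihood test. Over all genes, 5.93% were called for the 123CUG difference between stages and 20.1% for the stage difference between the 0CUG strains. The 123CUG minus 0CUG difference changed between L4 and adults by 0.56 ± 0.14 (SE) for lys-2, -2.70 ± 0.51 for lys-3, 0.86 ± 0.21 for lys-4 and 0.91 ± 0.19 for lys-8 on the log2 scale (edgeR adjusted p = 0.0128, 0.00116, 0.0146 and 0.00405; 24 libraries). Of these, lys-3 lies below 0 at each adult pair of strains, while lys-4 and lys-8 have opposite signs against the 2 adult 0CUG strains.

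The stage difference of 0CUG strain 2 exceeded that of strain 1 by 1.22 ± 0.18 for lys-1, 0.60 ± 0.20 for lys-2, 1.91 ± 0.30 for lys-4, 3.38 ± 0.83 for lys-7, 1.76 ± 0.27 for lys-8 and 8.13 ± 2.14 for ilys-3 (edgeR adjusted p = 2.67e-05, 0.0308, 8.22e-05, 0.00678, 5.68e-05 and 0.00728). The value of ilys-3 rests on 1 read in the adults of strain 1 and is not a measure of size. lys-2 lost its call in 10 of 12 fits without 1 library (edgeR adjusted p 0.0581 to 0.458) and with DESeq2's size factors (0.39, edgeR adjusted p = 0.130). In the same contrast, where 20.1% of all genes were called, 12 of 14 intestine markers and all 6 yolk genes were called in the same direction. Their part in it was not tested.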

How the results depend on the processing

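The alternatives gave 1365 values of single members in the 10 planned comparisons. Of these 1223 kept their sign and their side of the threshold, 67 lost a call, 22 gained one, 52 changed sign with no call on either side, and 1 changed sign and gained a call: lys-3 in the difference of the mbl-1 effect between labelled stages, from -0.17 to 2.05 without the third adult libraries. Counts of members called changed as follows. mbl-1 against N2 labelled L4 had 7 calls, 1 in a fit of 12 libraries and 5 to 6 without 1 library. The adults had 0 calls, 0 to 0 without 1 library and 7 without the third library of each group. For 123CUG against 0CUG the 2 calls at L4 became 1 with a replicate block and 0 to 4 without 1 library, and the 4 calls in adults became 2 with DESeq2's size factors, 2 in a fit of 24 libraries and 1 to 4 without 1 library. The stage comparisons kept 5 calls in 0CUG (5 to 5 without 1 library) and 6 in 123CUG (6 to 6), and the 123CUG interaction kept 2 to 4 of 4. The stage comparison of N2 had 0 (0 to 0), that of mbl-1 0 (0 to 0; 1 with DESeq2 and 6 without the third libraries) and the mbl-1 interaction 0 (0 to 0; 2 without the third libraries). The cause of these changes was not tested, except that fewer libraries were fitted where some were left out.

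Counts over all genes moved by over 1.5 times in some settings. mbl-1 against N2 labelled L4 called 6821 genes, and 996 in a fit of 12 libraries. In adults it called 0, and 132 with DESeq2, 79 in a fit of 12 libraries and 4416 without the third libraries. 123CUG against 0CUG at L4 called 2342, and 1522 in a fit of 24 libraries; in adults it called 1416, and 937 to 2172 without 1 library. The 123CUG interaction called 1022, and 1538 with DESeq2, with 67.1% and 56.0% of the calls as rises. The mbl-1 stage comparison called 79, and 44 with DESeq2's size factors, 729 with DESeq2, 1 with a replicate block and 2946 without the third libraries; the mbl-1 interaction called 1, and 173 with DESeq2, 0 with a replicate block and 879 without the third libraries. For the difference of the stage change between 0CUG strains, rises made up 74.3% of the calls, and 47.7% with DESeq2's size factors, which move the median of all genes by -0.198, and 47.5% with DESeq2; between 123CUG strains they made up 25.2% and 38.2%, of 652 calls that became 1052 without the filter, 1174 with DESeq2 and 264 to 642 without 1 library. 0CUG strain 2 against strain 1 at L4 called 191, and 714 without the filter, 587 with DESeq2 (rises 17.3% and 34.6%), 484 in a fit of 24 libraries and 105 to 333 without 1 library. Among pairs of strains at L4, 123CUG strain 1 against 0CUG strain 2 called 2201 and 1385 in a fit of 24 libraries, 123CUG strain 2 against 0CUG strain 1 1423 and 928, and 123CUG strain 2 against 0CUG strain 2 612 and 1002 without the filter. 123CUG strain 2 against strain 1 in adults called 759 and 1169 without the filter.

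Replicate numbers did not pair the samples: the deviations of same-numbered N2 and mbl-1 adults correlated at -0.73, -0.20 and -0.82, and those of the transgenic pairs at -0.15 to 0.16. Without the filter on low counts lys-4 was called as lower in 123CUG at L4 and lys-7 as lower in 123CUG adults (-0.55 and -0.62). lys-5, lys-6 and ilys-3 are limited by their read numbers.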
